A study of Homo sapiens with 6 samples.

Results

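Abundant antisense-named genes were followed in U-2OS cells, a human osteosarcoma line, after knockdown of SFPQ. A gene belonged to this set when its name ended in -AS or -AS with a number and its counts over the 6 libraries summed to at least 1000; names beginning with ZNF, ZFP, ZSCAN, ZBTB, HOX, HLA-, COL4A2, COL18A1 or LOXL and 10 single genes were left out. Of the 35036 genes listed in the deposited table, 1869 carried such a name, 209 of them reached the count minimum and 190 were members. The summed count chose them, so their abundance is given as a description. All 190 passed the filter on low counts. The groups were 3 libraries with a control siRNA (SiCtrl) and 3 with an siRNA against SFPQ (SiSFPQ), all from cells treated with actinomycin D, and the labels give neither dose nor duration nor an untreated group. The comparison therefore asks how SFPQ depletion changed these RNAs while the drug was present in both groups. Nothing in the labels says that the libraries of a group came from separate cultures, so p-values measure the spread between these libraries.

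SFPQ is a nuclear RNA-binding protein of the DBHS family and a core protein of paraspeckles, the nuclear bodies built on the long non-coding RNA NEAT1. Actinomycin D binds DNA and blocks transcription. An antisense RNA is transcribed from the strand opposite a partner gene, from a shared promoter region, across the partner's end or from within the partner, and some such RNAs are known to alter the transcription, splicing or stability of their partners. The names used here record only where a transcript lies.

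The table listed non-coding genes, with 1385532 to 1533974 counts in the SiCtrl libraries and 1298658 to 1599566 in the SiSFPQ libraries; these totals cover part of each library and are not its depth. The level of SFPQ was not analysed here, and the efficiency of its knockdown is not known from these values. The library kit was stranded, but whether counting used the strand is not given in the sources used here. MALAT1 and its antisense partner TALAM1 held 72563 and 72552 counts, which leaves reads of the 2 strands not told apart at that locus. Exons of 164 members shared bases with an exon of the partner in GENCODE 29, and 11 more shared bases with another coding gene. For these a value may hold reads of the coding gene, and fewer transcripts cannot be told apart from fewer partner reads.

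The members did not move one way. Of 190, 71 were higher and 69 lower after SFPQ knockdown and 50 were not called (edgeR quasi-likelihood test, Benjamini-Hochberg adjusted p under 0.05 over 6325 tested genes). That is 73.7% called, beside 48.4% of all tested genes, with 24.5% higher and 24.0% lower. Among all tested genes with at least 1000 counts, 72.7% were called, 32.7% higher and 40.0% lower, so the share of members called was near that of other abundant genes. The median log2 fold change of the members was 0.02, with quartiles at -0.29 and 0.26, beside 0.01 for all tested genes and -0.04 for the abundant ones. The libraries of the 2 groups did not overlap for 144 members (75.8%), beside 54.0% of all tested genes and 75.7% of abundant ones.

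Most changes were small. Of the 140 called members, 88 had a log2 fold change under 0.5 either way. Only 6 members rose and 5 fell by at least 1 on the log2 scale, 5.79% of the set, beside 12.2% of all tested genes and 6.27% of abundant ones. The extremes were PTPRG-AS1 at -1.93 and TM4SF1-AS1 at 1.86. Of the calls, 3 came with overlapping libraries, those of SH3BP5-AS1, HDAC2-AS2 and WAC-AS1. Of 14 alternatives, 7 lost the call of SH3BP5-AS1 and 5 that of WAC-AS1. The edgeR adjusted p of SH3BP5-AS1 was 0.28 without SiCtrl replicate 2, 0.19 without SiCtrl replicate 3, 0.16 without SiSFPQ replicate 2 and 0.082 without SiSFPQ replicate 3. That of WAC-AS1 was 0.12 without SiCtrl replicate 2, 0.14 without SiCtrl replicate 3 and 0.46 without SiSFPQ replicate 3.

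**Figure D1:**
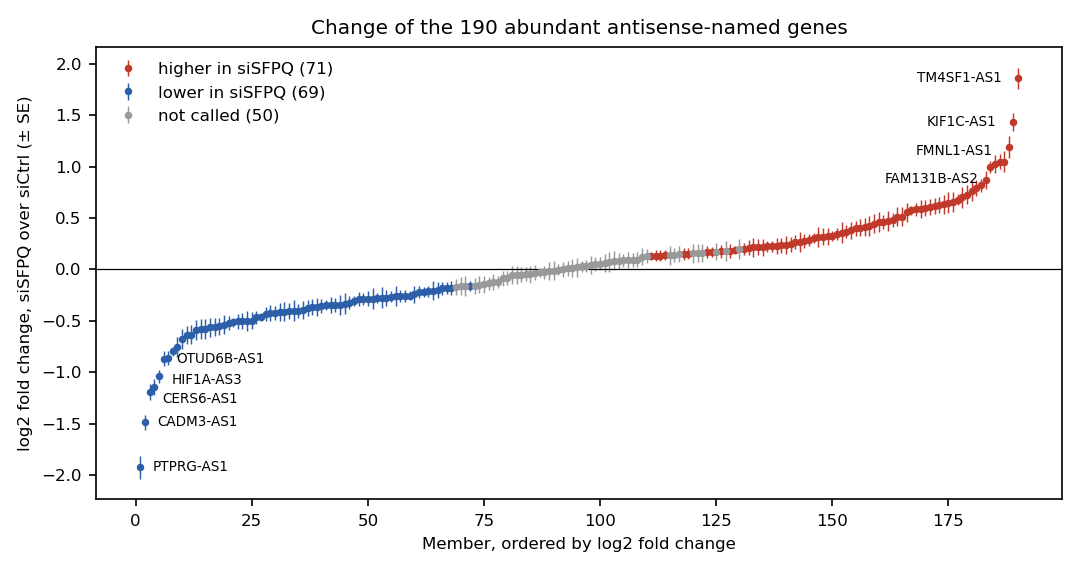
Log2 fold change of each of the 190 members, SiSFPQ over SiCtrl, in order of its value; points are edgeR estimates, vertical lines are standard errors, and colours give the call. The 71 higher and 69 lower members lie on both sides of 0, with 88 of the called ones under 0.5 either way.

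As a share of plain library totals, the part of the table held by all members together did not differ beyond the spread between libraries. Members took 11.62, 11.70 and 11.63% of the counts in the SiCtrl libraries and 11.70, 11.56 and 11.74% in the SiSFPQ libraries. The means were 11.65 ± 0.047% and 11.67 ± 0.093% (SD, n = 3 each, two-sided exact permutation p = 0.9, where 3 against 3 can give no less than 0.1). The 8 most abundant members together went from 5.65 ± 0.072% to 5.42 ± 0.090%, and the others from 6.00 ± 0.030% to 6.24 ± 0.065% (SD, n = 3, exact permutation p = 0.1 for each). The 8 did not move as one. TUBA1B-AS1 alone changed by -0.504 percentage points, beside -0.230 for the 8 together. MYL12-AS1 changed by -0.107 and FGD5-AS1 by -0.026, while MIF-AS1 gained 0.255, VIM-AS1 0.106, TNS2-AS1 0.084 and RPL30-AS1 0.010. The groups did not overlap in either share. The 15 members whose GENCODE 29 exons overlap no coding exon went from 0.457 ± 0.0080% to 0.481 ± 0.011% (SD, n = 3, exact permutation p = 0.1), with every SiSFPQ library above every SiCtrl library. Of them 4 were called higher and 4 lower, and GUCY2C-AS1 alone went from 650, 685 and 628 counts to 1189, 1460 and 1505. All these shares are of plain totals. The TMM factors were 0.976 to 0.981 in SiCtrl and 1.019 to 1.027 in SiSFPQ, so shares stand higher in SiSFPQ than TMM-scaled values would. The results on shares therefore hold for plain totals only. For the 15 members, SiSFPQ library 1 held 0.469% with a factor of 1.027, and SiCtrl library 1 held 0.465% with a factor of 0.976. Divided by these factors, the order of those libraries turns, so the separation does not hold on the TMM scale. No test of the shares was run on that scale.

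A few genes dominated. Summed counts ran from 1009 to 160343 with a median of 2060, and TUBA1B-AS1 and MIF-AS1 held 28.1% of all member counts. TUBA1B-AS1 spans TUBA1B, the gene of a ubiquitous alpha-tubulin, on chromosome 12 from 49127782 to 49188484, and 80.2% of its exonic bases lay in exons of that gene. It measured 21873, 21976 and 20828 CPM (counts scaled to a common TMM-adjusted table total) in SiCtrl and 16069, 14800 and 15969 in SiSFPQ. Every SiSFPQ library was below every SiCtrl library, and the gene fell by 0.47 on the log2 scale (SE 0.04, edgeR adjusted p = 3.1e-32). MIF-AS1, which runs into the 3' end of the cytokine gene MIF on chromosome 22, measured 13901, 13825 and 13855 CPM in SiCtrl and 15939, 15752 and 15716 in SiSFPQ. It rose by 0.19 (SE 0.04, edgeR adjusted p = 5.7e-06), and the groups did not overlap.

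VIM-AS1 starts head to head with VIM, which encodes the intermediate filament protein vimentin. It measured 7307, 7591 and 8153 CPM in SiCtrl and 8309, 8514 and 8418 in SiSFPQ, a log2 change of 0.13 (SE 0.04, edgeR adjusted p = 0.0035). Without SiCtrl replicate 1 the call was lost (edgeR adjusted p = 0.10). RPL30-AS1, inside the gene of a protein of the large ribosomal subunit, measured 4671, 4916 and 4326 CPM against 4550, 4607 and 4465, groups that overlap (log2 change -0.03, edgeR adjusted p = 0.58). FGD5-AS1, a long non-coding RNA much studied in tumour cells, went from 2739, 2596 and 2552 CPM to 2284, 2240 and 2248 (log2 change -0.22, SE 0.05, edgeR adjusted p = 5.9e-06). FGD5-AS1 fell with no overlap between groups.

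The 2 largest changes among the 8 most abundant members were in members named for genes of the contractile and adhesion machinery. MYL12-AS1 overlaps exons of MYL12A and MYL12B, neighbouring genes for regulatory light chains of non-muscle myosin. It measured 2697, 2975 and 2721 CPM in SiCtrl and 1617, 1608 and 1605 in SiSFPQ, and fell by 0.80 (SE 0.05, edgeR adjusted p = 1.8e-64). TNS2-AS1, head to head with the gene of the focal adhesion protein tensin 2, measured 1536, 1635 and 1562 CPM against 2397, 2348 and 2297 and rose by 0.57 (SE 0.05, edgeR adjusted p = 7.1e-33). Its exons share bases with the coding gene EIF4B as well as with TNS2, so its value may hold reads of either. The 3 SiSFPQ libraries were far from the SiCtrl libraries in both cases and in opposite directions.

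**Figure D2:**
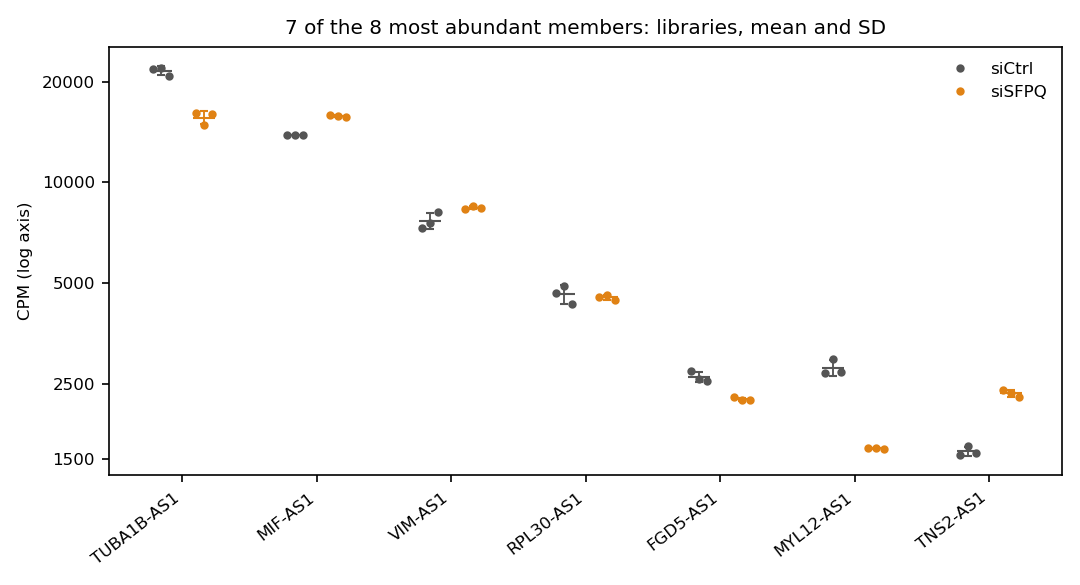
CPM (log axis) of 7 of the 8 most abundant members in each library; dots are libraries, long dashes the mean and bars the SD of 3 libraries, SiCtrl in grey and SiSFPQ in orange. Of those shown, only RPL30-AS1 has overlapping groups; TUBA1B-AS1, FGD5-AS1 and MYL12-AS1 are lower and MIF-AS1, VIM-AS1 and TNS2-AS1 higher in SiSFPQ.

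The 10 largest increases, among members called with groups that do not overlap, were in less abundant genes. TM4SF1-AS1, on chromosome 3 from 149354658 to 149386585, starts head to head with TM4SF1, a membrane protein of the transmembrane 4 L6 family. It measured 54.2, 51.6 and 63.6 CPM in SiCtrl and 225, 202 and 188 in SiSFPQ, a rise of 1.86 (SE 0.11, edgeR adjusted p = 2e-66). KIF1C-AS1, inside the gene of a kinesin that carries vesicles along microtubules, measured 103, 102 and 117 CPM against 283, 282 and 304 (log2 change 1.43, SE 0.09, edgeR adjusted p = 2.6e-59). The lowest SiSFPQ library of each was well over the highest SiCtrl library.

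FMNL1-AS1, at the gene of an actin-assembling formin, measured 62.8, 87.0 and 68.1 CPM against 174, 148 and 178 (log2 change 1.19, SE 0.10, edgeR adjusted p = 1.1e-28). RPL26L1-AS1, at a gene for a relative of ribosomal protein L26, measured 181, 171 and 164 CPM against 381, 330 and 359 (log2 change 1.05, SE 0.08, edgeR adjusted p = 2.5e-41). GUCY2C-AS1, at the gene of the receptor for the gut hormone guanylin, was the most abundant of the 10. It measured 464, 465 and 470 CPM in SiCtrl and 908, 909 and 973 in SiSFPQ (log2 change 1.00, SE 0.06, edgeR adjusted p = 5.5e-66), and its SiCtrl libraries spread by only 3.10 CPM (SD, n = 3). No GENCODE 29 exon of GUCY2C-AS1 or of FAM131B-AS2 shared bases with a coding exon, while the listed span of each holds some.

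C10orf95-AS1 and FAM131B-AS2 rose by 1.05 and 1.02. FAM131B-AS2 lies on the same strand as FAM131B in GENCODE 29, so its name and its position differ there. PPP1R14B-AS1, at the gene of an inhibitor of protein phosphatase 1, rose by 0.87, MZF1-AS1, at a zinc finger transcription factor gene, by 0.82, and GTF3C2-AS2, at the gene of a subunit of the RNA polymerase III factor TFIIIC, by 0.79.

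The 10 largest decreases included the member with the greatest change of all. PTPRG-AS1 runs into the 3' end of PTPRG, a receptor tyrosine phosphatase gene, on chromosome 3 from 62214400 to 62369356. It measured 180, 191 and 211 CPM in SiCtrl and 51.9, 53.6 and 47.2 in SiSFPQ, and fell by 1.93 (SE 0.11, edgeR adjusted p = 5.5e-68). CADM3-AS1, at a cell adhesion molecule gene, measured 559, 533 and 521 CPM against 193, 200 and 182 (log2 change -1.49, SE 0.07, edgeR adjusted p = 7e-98). CERS6-AS1, at a ceramide synthase gene, measured 329, 330 and 321 CPM against 135, 140 and 152 (log2 change -1.20, SE 0.08, edgeR adjusted p = 6e-49). MAP3K20-AS1, at the gene of the stress kinase ZAK, measured 375, 356 and 376 CPM against 176, 155 and 171 (log2 change -1.14, SE 0.08, edgeR adjusted p = 1.8e-49). All 4 meet their partner tail to tail, and in none did a SiSFPQ library reach the SiCtrl range.

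HIF1A-AS3 lies opposite HIF1A, which encodes the oxygen-regulated subunit of the hypoxia factor. It measured 623, 567 and 580 CPM in SiCtrl and 296, 266 and 300 in SiSFPQ (log2 change -1.04, SE 0.06, edgeR adjusted p = 3.5e-56). With it, the 5 members that fell by at least 1 all overlap their partner tail to tail; tail-to-tail members as a class were 21 higher, 21 lower and 11 not called. OTUD6B-AS1, which starts beside a deubiquitinase gene, fell by 0.87 from 381 ± 15.6 to 208 ± 17.7 CPM (SD, n = 3). Its GENCODE 29 exons and its listed span held no base of a coding exon, so of the 20 largest changes it is the one with no such overlap by either measure. GPAT4-AS1, named for an enzyme of glycerolipid synthesis, fell by 0.86 from 466 ± 25.7 to 256 ± 7.39 CPM (SD, n = 3). HMGN3-AS1, at the gene of a nucleosome-binding protein, fell by 0.75, and DUT-AS1, at the gene of the enzyme that removes dUTP, by 0.68.

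**Figure D3:**
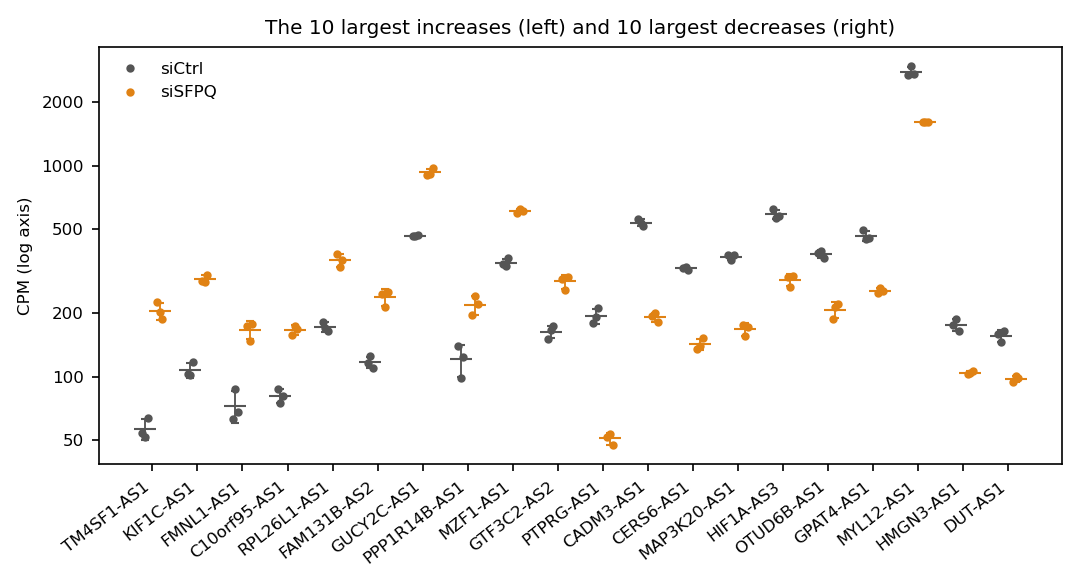
CPM (log axis) of the members with the 10 largest increases and 10 largest decreases; dots are libraries, long dashes the mean and bars the SD of 3 libraries, SiCtrl in grey and SiSFPQ in orange. The groups do not overlap for any of the 20, a condition of their choice; PTPRG-AS1 went from a mean of 194 to 50.9 CPM and TM4SF1-AS1 from 56.5 to 205.

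Promoter sequences are shown for 4 of the 20, 2 that rose and 2 that fell. Each of the 4 had a RefSeq start within 200 bases of the listed start and a window that touched no coding-gene UTR. Some of the 20 were left out beforehand by their location, whatever their window. The 4 therefore need not be all that met both conditions. Each run covers 250 bases before the start and 50 from it on, 5′ to 3′ on the gene's strand (RefSeq, GRCh38.p14). Capitals mark 4 motifs on either strand, so the reverse complement of each is marked too. The CCAAT box is read as its own letters. The GC box, which binds Sp1-like factors, is read as GGGCGG. The TATA box is read as TATAAA. The core of the hypoxia element, bound by the hypoxia factor, is read as ACGTG. No 2 marked motifs overlap in these windows.
FMNL1-AS1, chr17:45241721-45242020, minus strand: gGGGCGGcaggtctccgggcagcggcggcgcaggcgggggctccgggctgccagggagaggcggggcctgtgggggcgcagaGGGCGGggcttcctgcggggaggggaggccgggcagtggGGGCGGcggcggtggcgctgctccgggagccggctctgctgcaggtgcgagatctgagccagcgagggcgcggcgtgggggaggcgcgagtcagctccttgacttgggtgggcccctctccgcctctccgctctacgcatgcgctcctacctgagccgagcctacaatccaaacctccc
GUCY2C-AS1, chr12:14665386-14665685, plus strand: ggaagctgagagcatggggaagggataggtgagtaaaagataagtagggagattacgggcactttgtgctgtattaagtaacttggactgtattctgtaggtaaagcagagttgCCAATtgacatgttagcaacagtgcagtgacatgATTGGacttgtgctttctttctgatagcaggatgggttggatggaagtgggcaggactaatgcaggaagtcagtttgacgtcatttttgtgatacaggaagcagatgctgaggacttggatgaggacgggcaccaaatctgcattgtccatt
HIF1A-AS3, chr14:61751048-61751347, minus strand: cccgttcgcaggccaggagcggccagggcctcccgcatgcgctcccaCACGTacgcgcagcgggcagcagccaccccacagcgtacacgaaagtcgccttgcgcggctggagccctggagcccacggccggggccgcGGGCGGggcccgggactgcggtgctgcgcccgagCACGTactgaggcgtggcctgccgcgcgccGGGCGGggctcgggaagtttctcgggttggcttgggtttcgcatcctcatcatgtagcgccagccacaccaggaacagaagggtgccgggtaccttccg
HMGN3-AS1, chr6:79233424-79233723, plus strand: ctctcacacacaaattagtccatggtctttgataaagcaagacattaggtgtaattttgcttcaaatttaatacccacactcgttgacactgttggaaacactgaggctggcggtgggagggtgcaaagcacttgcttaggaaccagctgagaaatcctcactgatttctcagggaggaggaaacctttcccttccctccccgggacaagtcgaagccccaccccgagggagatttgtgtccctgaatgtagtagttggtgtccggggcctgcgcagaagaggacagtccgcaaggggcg
The 4 windows differ in composition. FMNL1-AS1 holds 3 GC boxes in a window of 75.7% G and C with 30 CpG pairs. HIF1A-AS3 holds 2 GC boxes and 2 copies of ACGTG, at 72.3% G and C with 36 CpG pairs. GUCY2C-AS1 holds 2 CCAAT boxes, 1 on each strand, at 45.3% G and C with 3 CpG pairs. HMGN3-AS1 holds none of the 4 motifs.

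A RefSeq promoter was matched by symbol, chromosome and strand for 138 of the 190 members. Of these, 72 had a RefSeq start within 200 bases of the listed start, and 57 had a window on a coding-gene UTR. All 138 were kept here, so a window may not be the promoter of the counted RNA. The median G and C content of the 138 windows was 63.2%, beside 58.7% over the 35116 promoters of the table. CCAAT was present in 36.5% of the 52 higher members, 14.0% of the 50 lower ones and 25% of the 36 not called, beside 34.6% of all promoters. A GC box was present in 61.5% of the higher and 60.0% of the lower members, beside 44.95% of all promoters. TATAAA was in 5.07% of members beside 11.5% of all promoters, and ACGTG in 26.1% beside 21.4%. These shares are descriptions, with no test of the difference, and the motifs were chosen after the changes were known.

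Members were grouped by what their partner gene does, from lists of partner genes, and 48 of the 190 were on a list. The lists do not hold every gene of a role, and differences between them were not tested. Among all tested genes with at least 1000 counts, 32.7% were higher and 40.0% lower. Of 10 members at cytoskeleton and adhesion genes, 2 were higher, 5 lower and 3 not called, with a median log2 change of -0.19. Besides TUBA1B-AS1 and FGD5-AS1, the lower ones included members at genes of a laminin-binding integrin and a spectrin. ITGA6-AS1 fell from 149 ± 21.1 to 99.3 ± 7.82 CPM and SPTBN1-AS2 from 138 ± 4.05 to 109 ± 6.79 (SD, n = 3), and their log2 differences were -0.58 and -0.34. The higher ones were VIM-AS1 and PXN-AS1, at the gene of the focal adhesion protein paxillin, whose change of 0.13 (edgeR adjusted p = 0.015) was lost without SiCtrl replicate 1 (0.13), SiCtrl replicate 2 (0.063) or SiSFPQ replicate 3 (0.11) and with no low-count filter (0.075). TPM1-AS, PDLIM7-AS1 and EZR-AS1 were not called, at log2 changes of 0.13, -0.00 and -0.16; EZR-AS1 was called without SiCtrl replicate 2 (edgeR adjusted p = 0.036) and TPM1-AS without SiCtrl replicate 1 (0.015). Members outside this list also include MYL12-AS1 and CADM3-AS1, which fell, and TNS2-AS1, KIF1C-AS1 and FMNL1-AS1, which rose, all described above.

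Of 6 members at metabolic genes, 4 were lower, 1 higher and 1 not called. IDH1-AS1, at the gene of cytosolic isocitrate dehydrogenase, fell from 204 ± 22.9 to 153 ± 3.52 CPM (SD, n = 3), and the lower ones also included SLC12A5-AS1 and SLC25A5-AS1. SLC25A5-AS1, at the gene of a mitochondrial ADP/ATP carrier, had a log2 change of -0.16 (edgeR adjusted p = 0.0016, and 0.068 with plain library totals). SLC16A1-AS1, at the gene of the lactate carrier MCT1, rose from 130 ± 5.51 to 177 ± 5.28 CPM (SD, n = 3).

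Of 7 members at proteostasis and trafficking genes, 4 were higher, 2 lower and 1 not called. PSMB8-AS1, at an immunoproteasome gene, rose from 249 ± 8.06 to 330 ± 11.9 CPM, TMEM147-AS1 from 337 ± 4.75 to 435 ± 2.65 and DNAJC9-AS1 from 182 ± 4.37 to 242 ± 2.33 (SD, n = 3). STARD7-AS1, at a lipid transfer protein gene, rose by 0.31 (edgeR adjusted p = 0.003). Leaving out SiSFPQ replicate 2 ended this call (edgeR adjusted p = 0.11), as did DESeq2 (adjusted p = 0.061). PSMA3-AS1, at a proteasome core gene, fell by 0.29 and STARD4-AS1, at a sterol carrier gene, by 0.31. LAMTOR5-AS1 was not called, at -0.03.

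Of 9 members at signalling genes, 4 were higher, 3 lower and 2 not called. MAPKAPK5-AS1, at a stress-activated kinase gene, rose from 118 ± 6.22 to 168 ± 4.52 CPM, and TGFB2-AS1, which starts beside the gene of the growth factor TGF-beta 2, from 176 ± 10.7 to 218 ± 25.6 (SD, n = 3). MAP3K20-AS1 and CD27-AS1 were among the lower ones, at -1.14 and -0.29. Of the 7 listed at transcription and chromatin genes, none was higher, 3 were lower and 4 not called. This holds for the list only. MZF1-AS1 and GTF3C2-AS2, described above, were not on it and rose by 0.82 and 0.79, while HMGN3-AS1, also not on it, fell by 0.75. The lower ones were HIF1A-AS3, KDM4A-AS1 at the gene of a histone H3 demethylase (-0.37), and HDAC2-AS2 at a histone deacetylase gene (-0.21, edgeR adjusted p = 0.048). The HDAC2-AS2 call was lost in 10 of the 14 alternatives tried, with edgeR adjusted p from 0.071 to 0.29 without SiCtrl replicate 1 or 2 or SiSFPQ replicate 1 or 2.

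The remaining lists were short. At ribosome genes, NOP14-AS1 and NIFK-AS1, named for nucleolar proteins of ribosome assembly, rose by 0.59 and 0.42, and RPL30-AS1 was not called. At cell cycle genes, CCND2-AS1 (cyclin D2) and TMPO-AS1 (a lamina-associated protein) fell by 0.43 and 0.41, while MCM3AP-AS1 rose by 0.22 and PRC1-AS1, named for a spindle midzone protein, by 0.17. The PRC1-AS1 call was lost without SiSFPQ replicate 3 (edgeR adjusted p = 0.058). At RNA processing genes, PCBP1-AS1 fell from 1938 ± 93.2 to 1354 ± 7.92 CPM (SD, n = 3) and EXOSC10-AS1, at a gene of the nuclear exosome, was not called. The name PCBP1-AS1 stands on 2 rows of the table, and the value given is that of the row with 14192 counts. The 142 members on no list were 56 higher, 49 lower and 37 not called, with a median of 0.06.

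A list of well-studied antisense RNAs held 14 members; 6 were higher, 7 lower and 1, THAP9-AS1, was not called. BACE1-AS and PINK1-AS, not on that list and chosen after their values were seen, are widely studied in neurodegeneration. BACE1-AS measured 188, 156 and 169 CPM in SiCtrl and 114, 113 and 114 in SiSFPQ (log2 change -0.59, SE 0.09, edgeR adjusted p = 2.9e-09). PINK1-AS measured 1132, 1090 and 1044 CPM against 890, 937 and 889 (log2 change -0.27, SE 0.05, edgeR adjusted p = 1.6e-06). Groups were apart for both. MAGI2-AS3, also much studied, was not called, at 685 ± 34.9 against 684 ± 17.7 CPM (SD, n = 3).

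The signed log2 change of a member showed little rank relation to how much of it overlaps coding exons. Across the 190 members, Spearman's rho between the share of exonic bases in coding exons and the log2 change was -0.082, a description across genes that share the same 6 libraries. A signed correlation does not show whether more members were called in either direction. The share called was 53.3% of 15 members at 0, 74.7% of 95 at over 0 to 25% and 74.5% of 51 at over 25 to 50%. Above 50% it was 79.3% of 29 (9 higher, 14 lower, median -0.14), beside 72.7% of all abundant genes. These differences were not tested. Members over partner exons were 65 higher, 60 lower and 39 not called (median 0.04), those over another coding gene 2, 5 and 4 (median -0.12), and those over none 4, 4 and 7 (median 0.05). These classes are approximate, because only 38 members have a listed length equal to their GENCODE 29 exonic length. Of the 15 with no overlap, only OTUD6B-AS1 and PFN2-AS1 had a listed span free of coding exons; PFN2-AS1 was not called, at 0.06. Among the 15, the higher members were FAM131B-AS2, GUCY2C-AS1, NUTM2B-AS1 (0.59) and TGFB2-AS1 (0.32), and the lower ones HIF1A-AS3, OTUD6B-AS1, ACTR3-AS1 (-0.35) and NECTIN3-AS1 (-0.26). At the other end, PYCR1-AS1 lies wholly in exons of PYCR1, a proline synthesis gene, and rose from 672 ± 31.2 to 1074 ± 27.7 CPM (SD, n = 3).

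**Figure D4:**
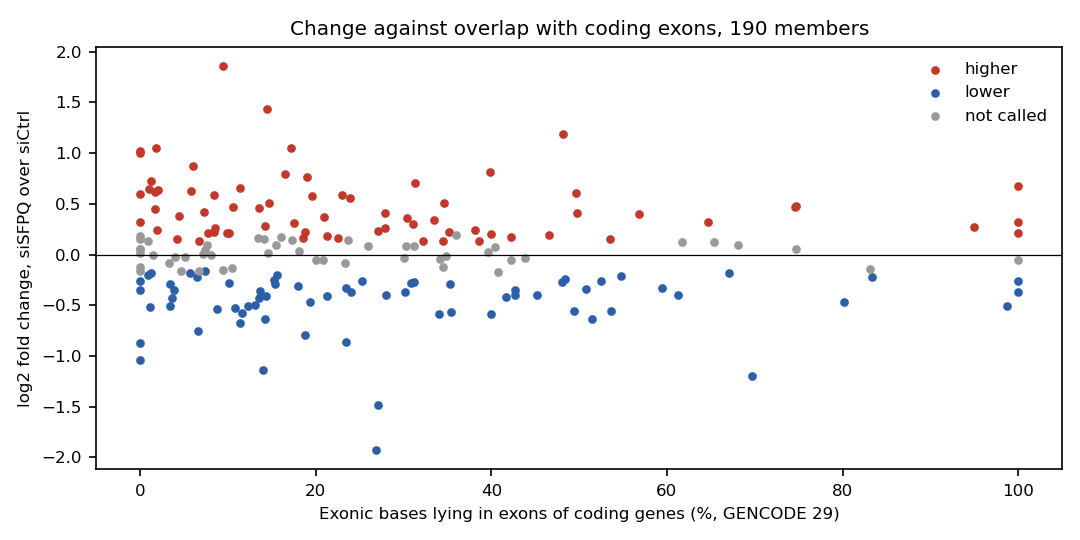
Change on the log2 scale (SiSFPQ over SiCtrl) of each of the 190 members against the percent of its exonic bases in coding exons of GENCODE 29; colours give the call. Higher and lower members stand at both ends of the axis, and the 15 members at 0 are 4 higher, 4 lower and 7 not called.

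By layout, 73 members overlapped their partner head to head (26 higher, 27 lower, 20 not called), 53 tail to tail (21, 21 and 11) and 43 lay inside the partner (14, 16 and 13). The 12 that span their partner were 8 higher, 2 lower and 2 not called, with a median of 0.21. The 6 head-to-head members with no overlap were 1 higher, 2 lower and 3 not called. The differences between layouts were not tested.

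Other rows of the table lay at the same loci. For 74 members another tested row overlapped them or shared a coding gene, 94 pairs in all; in 36 pairs both were called, 29 in the same direction and 7 in opposite ones. Whether paired rows share reads is not known here. Shared reads therefore cannot be told apart from separate transcripts that move together. Pairs named here were chosen after their values were seen, from 51 with at least 400 counts in both rows. HIF1A-AS3 and the overlapping ENSG00000258964 on the other strand fell alike, by 1.04 and 0.95. Their log2 ratio was -0.90 ± 0.031 in SiCtrl and -0.98 ± 0.13 in SiSFPQ (SD, n = 3), and the groups overlapped (exact permutation p = 0.4). C10orf95-AS1 and ENSG00000298413 rose by 1.05 and 1.00; the second holds 332 counts, under that minimum.

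Elsewhere rows of one locus parted. SLC9A3-AS1 lies inside SLC9A3, a sodium-proton exchanger gene, and fell from 576 ± 33.4 to 417 ± 7.14 CPM, while SLC9A3-OT1 rose from 100.4 ± 8.21 to 214.7 ± 11.02 CPM (SD, n = 3). Their log2 ratio went from 2.52 ± 0.11 to 0.96 ± 0.090 (SD, n = 3, exact permutation p = 0.1, the smallest possible). GTF3C2-AS2 rose by 0.79 while GTF3C2-AS1 at the same gene stood at -0.05 (edgeR adjusted p = 0.65), and the ratio shifted by 0.85. GPAT4-AS1 fell by 0.86 while ENSG00000253174, inside its span on the same strand, stood at 0.12 (edgeR adjusted p = 0.19), a shift of -0.98. TPM1-AS, at 0.13 and not called, contrasted with 2 other rows on its strand at TPM1, a tropomyosin gene, which fell by 0.87 and 0.80. In all of these the ratios of the groups did not overlap, which held for 28 of the 51 pairs compared.

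**Figure D5:**
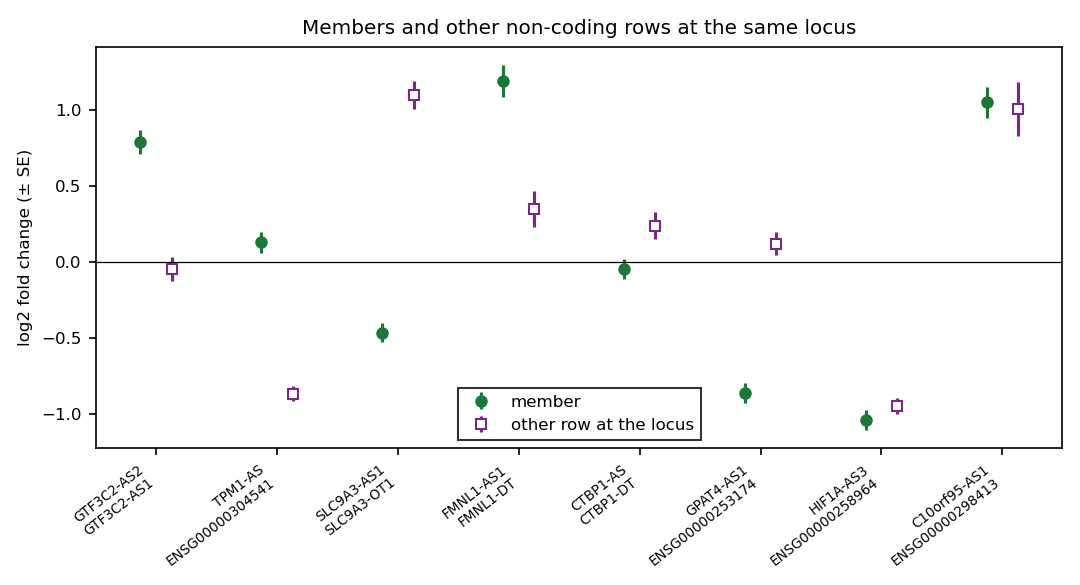
Log2 fold change (SiSFPQ over SiCtrl, bars are standard errors) of 8 members (filled circles) and another non-coding row at the same locus (open squares); the pairs were picked after their values were seen. HIF1A-AS3 and C10orf95-AS1 moved with their neighbour, while SLC9A3-AS1 at -0.47 and SLC9A3-OT1 at 1.10 moved apart.

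Members and other genes near the count minimum changed in both directions. Just inside it, FLNC-AS1 (1029 counts) had a log2 change of 0.36 and SLC12A5-AS1 (1009 counts) one of -0.40. Just outside, GABPB1-AS1 (994 counts) had 0.61 and AGAP2-AS1 (993 counts) -0.27. The FLNC-AS1 call was lost without SiSFPQ replicate 3 (edgeR adjusted p = 0.11). Among 617 less abundant antisense-named genes that were tested, 147 were higher and 121 lower, with a median of 0.06. Of 301 tested genes named -DT, divergent transcripts that start beside a promoter and run away from it, 109 were higher and 41 lower, with a median of 0.22; the difference from the members was not tested.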

How the data were processed

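Poly(A)-selected stranded libraries were made from total RNA of 6 samples, per the labels' protocols; the aligner, counter, annotation and genome build are not given in the sources used here. The authors deposited whole-number counts per non-coding gene with listed coordinates, 1298658 to 1599566 counts per library, which limits precision for genes of few counts. Counts were tested in R 4.3.3 with edgeR 4.0.16 (filterByExpr, TMM, glmQLFit with robust = TRUE, two-sided glmQLFTest, group only) and Benjamini-Hochberg adjustment over 6325 genes at 0.05; the test was tested on simulated data. CPM values use TMM-scaled totals. DESeq2 1.42.0, limma-voom (limma 3.58.1), other scalings and filters, other count minimums, leave-one-out fits and a block for the replicate number were alternatives. Within groups, replicates differed beyond sampling noise (chi-square per degree of freedom 1.24 to 1.40).

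Coding-exon overlap came from GENCODE 29 (GRCh38), where 188 of the 190 members overlapped the gene with the same gene identifier. Names were not compared. The other 2 used the listed span. Promoters came from RefSeq (GRCh38.p14). Coordinates of members are those of the table. The members and lists were chosen with earlier results of these data known. Named genes were the 8 most abundant members, the 10 largest increases and 10 largest decreases among members called with groups that do not overlap, members on a list of studied antisense RNAs, the 2 members just inside and 2 genes just outside the count minimum, and other rows at their loci. Results of 2 members are not reported here. Members named in the sections on partner roles, overlap and neighbouring rows beyond these were chosen after their values were seen.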

Additional observations from a re-analysis of the deposited data

How the results depend on the processing

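Of the 190 members, 110 were called in the same direction in all 14 alternatives that tested every member (51 higher, 59 lower), and no called member turned. Called higher ranged from 59 to 72 and called lower from 62 to 72 when 1 library was left out. DESeq2 called 58 higher and 62 lower, keeping 120 of the 140 calls, and plain library totals gave 81 and 59. Tested only among genes with no coding-exon overlap, 4 of 15 members were higher and 4 lower. A minimum of 500 counts gave 112 called higher of 308 members and one of 2000 gave 36 higher and 39 lower of 99; these counts follow from the number of members. The median log2 change, 0.02, was 0.088 with plain library totals, which also moved the median of all tested genes to 0.07, and -0.029 with the minimum of 2000 counts. The difference in the members' share of plain table totals, 0.016 percentage points, ran from -0.020 to 0.068 with 1 library left out. It thus has no stable sign on that scale. With the replicate block 71 members were higher and 68 lower. Deviations of same-numbered libraries correlated at -0.005, 0.001 and 0.010, and not every library correlated best with its own number. These values give no sign of pairing by number, but so few libraries cannot exclude it. Over 72 members named by the rule or in the text, 32 of 1017 alternative values lost the call (9 members), 3 gained one and none reversed. Small changes depended on single libraries: the calls of VIM-AS1, PXN-AS1 and PRC1-AS1, at 0.13 to 0.17, were each lost without at least 1 library.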
